A study of Danio rerio with 24 samples.

Results

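In zebrafish liver, 10 of the 32105 genes in the Ensembl count table are described here, among those whose transcript level differed most clearly between parents (F0) and progeny (F1). They are *fdx1*, *ttc27*, *camk1ga* and *pglyrp2*, which were higher in F1, and *nfia*, *nedd4l*, *nedd4a*, *nrbp2b*, *tns2b* and *etnk1*, which were lower. They were chosen by a small p between F1 and F0 in one or both of 2 lineages, so that the size and direction of their F1 against F0 difference is a description and was not tested. Arachidonic acid (ARA), an n-6 polyunsaturated fatty acid, was the dietary variable named by the study, which asked whether high ARA in the feed of parents alters the liver of their progeny. The high ARA diet also held less rape seed oil and less flax seed oil than the control diet.

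All fish were wildtype AB zebrafish. The tanks held both sexes, and all livers described here came from males. The F0 control group received a control diet low in ARA from 27 days post fertilization (DPF), and the F0 high ARA group a diet rich in ARA from the same day. F0 fish were mated at 97 DPF and their livers were taken at 154 to 156 DPF. The F1 control group descended from control parents and the F1 high ARA group from high ARA parents, but both ate the control diet from 27 DPF on. Before that day all fish had a common start feed. The F1 livers were taken between 140 and 142 DPF. Fish were fasted before dissection. Each group has 6 libraries, 24 in all, and each library is a pool of 6 male livers from one tank, so that variation between single fish is not seen. Age, generation and sampling round differ together between F0 and F1 and cannot be told apart, and in the high ARA lineage the diet that the fish themselves ate differs as well. The lineages share no library. The total count per library was 5144880 to 15659321, and all F1 control totals lay below all F1 high ARA totals. Transcripts of 10 hepatocyte markers, such as *tfa* (transferrin) and *apoa2*, summed to 108613 to 161224 CPM (counts scaled to equal library totals, with TMM factors) in every library, and testis markers to 6.17 CPM at most. Where a transcript is lower in such bulk tissue, fewer cells that express it and less RNA per cell cannot be told apart.

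The 10 proteins act in different compartments. Ferredoxin 1 carries electrons to cytochrome P450 enzymes in mitochondria, ethanolamine kinase 1 starts the synthesis of phosphatidylethanolamine, and peptidoglycan recognition protein 2 is an enzyme that mammalian liver secretes to cleave bacterial cell wall. NEDD4A and NEDD4L are ubiquitin ligases with a HECT domain, nuclear factor I A is a transcription factor, tensin 2 joins integrins to the actin cytoskeleton, CAMK1G is a kinase switched on by calcium and calmodulin, and NRBP2 is a pseudokinase. TTC27 is built of tetratricopeptide repeats, a fold that holds proteins together.

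The genes lie on 8 chromosomes of GRCz10, 5 on each strand, and those on one chromosome are far apart. *camk1ga* and *nfia* are separated by 15760687 bases on chromosome 22, *pglyrp2* and *tns2b* by 30752971 bases on chromosome 6. Averaged over the 24 libraries and per kilobase of exon, their levels ran from 0.657 CPM for *tns2b* to 76.5 CPM for *fdx1*, at or above 8.88% and 94.3% of the 11974 genes that reached a mean count of 10. All 10 passed this filter in each fit of the Ensembl counts.

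In F1 against F0, 4 of the 10 genes were higher and 6 lower, and each had the same sign in the control and in the high ARA lineage. Among all 11599 genes tested in both lineages the sign was shared by 68.6%, among the 270 of them called in the control lineage by 92.2%, and among the 1998 called in the high ARA lineage by 87.3%. A gene was called where its Benjamini-Hochberg adjusted p over all genes was under 0.05 (edgeR, quasi-likelihood). Of the 10 genes 8 were called in the control lineage, where 2.34% of 11729 genes were, and 8 in the high ARA lineage, where 16.9% of 12150 were. Nothing can be read from these counts, since the p chose the genes. The genes not called were *nfia* and *nrbp2b* in the control lineage and *tns2b* and *nedd4a* in the high ARA lineage. Over all genes, 134 were called in both lineages with the same sign, or 1.16% of those tested in both, which is 49.6% of the control list and 6.71% of the high ARA list.

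The choice had no fixed threshold, and the 10 genes differ in where their p ranked. *fdx1* was first in the high ARA lineage and rank 44 in the control lineage, *pglyrp2* was first in the control lineage and rank 205 in the high ARA lineage, and *etnk1* was at rank 5 and 28. At the other end, *nrbp2b*, rank 10 in the high ARA lineage, was at rank 2575 in the control lineage, and *tns2b*, rank 2 in the control lineage, at rank 4139 in the high ARA lineage. The median size of the log2 fold change of the 10 genes was 0.95 in the control lineage and 1.13 in the high ARA lineage, beside 0.19 and 0.27 over all genes tested.

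**Figure D1:**
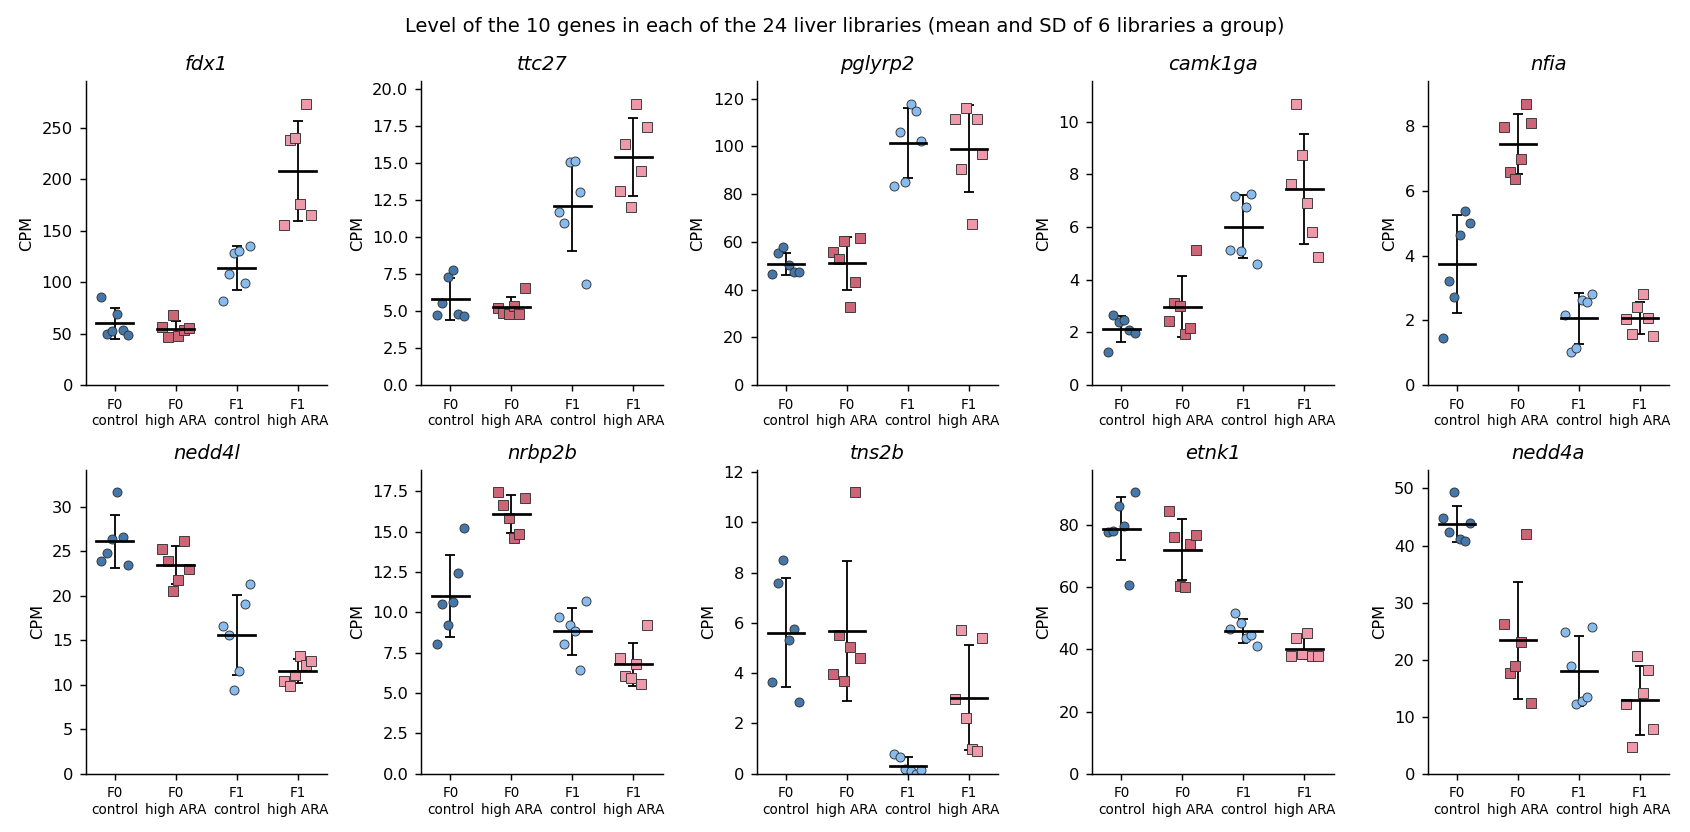
CPM with TMM factors (y axis, from 0) of the 10 genes in 6 libraries of each of 4 groups (x axis); each point is a library, the bar is the group mean and the whisker its SD. *pglyrp2* was higher in F1 by about the same amount in both lineages, *nfia* and *nrbp2b* had a higher mean in F0 high ARA than in F0 control, and *tns2b* was close to 0 in F1 control alone.

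Among the genes that were higher in F1, *fdx1* (ENSDARG00000056410, chromosome 9, 29709950 to 29724707, plus strand) had the highest level per kilobase of exon. Its 6 libraries lay between 48.4 and 86.0 CPM in F0 control (median 52.9) and between 47.1 and 68.3 CPM in F0 high ARA (median 54.5). The F1 control libraries lay between 81.3 and 136 CPM (median 119). Those of F1 high ARA reached 155 to 274 CPM (median 207). The lowest F1 high ARA library thus lay above every library of the other 3 groups, while F0 control replicate 7, at 86.0 CPM, overlapped with F1 control. The log2 fold change of F1 against F0 was 0.92 (SE 0.163) in the control lineage and 1.92 (SE 0.159) in the high ARA lineage, or 1.89-fold and 3.79-fold. The shifts differed by 1.00 on the log2 scale (SE 0.23). The RefSeq counts gave 0.93 and 1.92. The Ensembl exons of *fdx1* share 276 bases with *arhgap20* on the other strand, which had 143 counts in the 24 libraries together, and reads were counted without strand. The genes most like *fdx1* over the 24 libraries were *hvcn1* (Pearson r 0.92) and *slc16a4* (0.91), and within groups *itpkcb* (0.83). Here and for the genes below, these are the highest r of 11864 genes searched, and no chance level was set for them. Over the 24 libraries r carries the shift that chose the genes. Likeness within groups need not extend to that shift, and the mean of *itpkcb* was lower in F1.

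*ttc27* (ENSDARG00000007918, chromosome 17, 22740290 to 22927281, plus strand) was much less abundant, yet followed the same order of groups as *fdx1*. It was at 4.66 to 7.79 CPM in F0 control (median 5.15) and 4.77 to 6.55 CPM in F0 high ARA (median 5.03). Its F1 levels were 6.82 to 15.1 CPM in F1 control (median 12.4) and 12.0 to 19.0 CPM in F1 high ARA (median 15.4). One library, F1 control replicate 12 at 6.82 CPM, fell within the range of F0 control, and the high ARA groups did not overlap. On the log2 scale F1 differed from F0 by 1.05 (SE 0.198) in the control and 1.55 (SE 0.136) in the high ARA lineage, a difference of 0.49 (SE 0.246). The genes most like it were *bop1* (r 0.91), which was also the closest within groups (r 0.77), and *pwp2h* (r 0.90).

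*camk1ga* (ENSDARG00000044526, chromosome 22, 1032469 to 1052509, plus strand) rested on few reads, 11 to 88 counts per library. It was at 1.25 to 2.65 CPM in F0 control (median 2.24) and at 1.95 to 5.14 CPM in F0 high ARA (median 2.73). In F1 it was at 4.60 to 7.27 CPM in the control group (median 5.94) and at 4.87 to 10.7 CPM in the high ARA group (median 7.28). The control groups did not overlap. In the high ARA lineage the overlap came from F0 replicate 18, at 5.14 CPM, and without that library the log2 fold change was 1.53 in place of 1.31 (SE 0.243). In the control lineage it was 1.46 (SE 0.2), or 2.76-fold. The 2 genes most like *camk1ga* over the 24 libraries were *bmp1a* and *slc37a4a* (r 0.89 each), and within groups it was *srprb* (r 0.77).

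*pglyrp2* (ENSDARG00000062998, chromosome 6, 8254783 to 8263369, minus strand) shifted almost equally in both lineages. F0 control libraries were at 46.5 to 57.7 CPM (median 49.0) and F0 high ARA libraries at 32.8 to 61.5 CPM (median 54.3). F1 control libraries were at 83.5 to 118 CPM and F1 high ARA libraries at 67.6 to 116 CPM, with the same median of 104. No F1 library reached down to the F0 range of its lineage. The log2 fold change was 0.99 (SE 0.107) in the control and 0.95 (SE 0.165) in the high ARA lineage, and the difference of the shifts was -0.05 (SE 0.2). Most like it were *u2af2b* (r 0.91) and *eif2s2* (r 0.89), and within groups *rbms2a* (r 0.79).

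**Figure D2:**
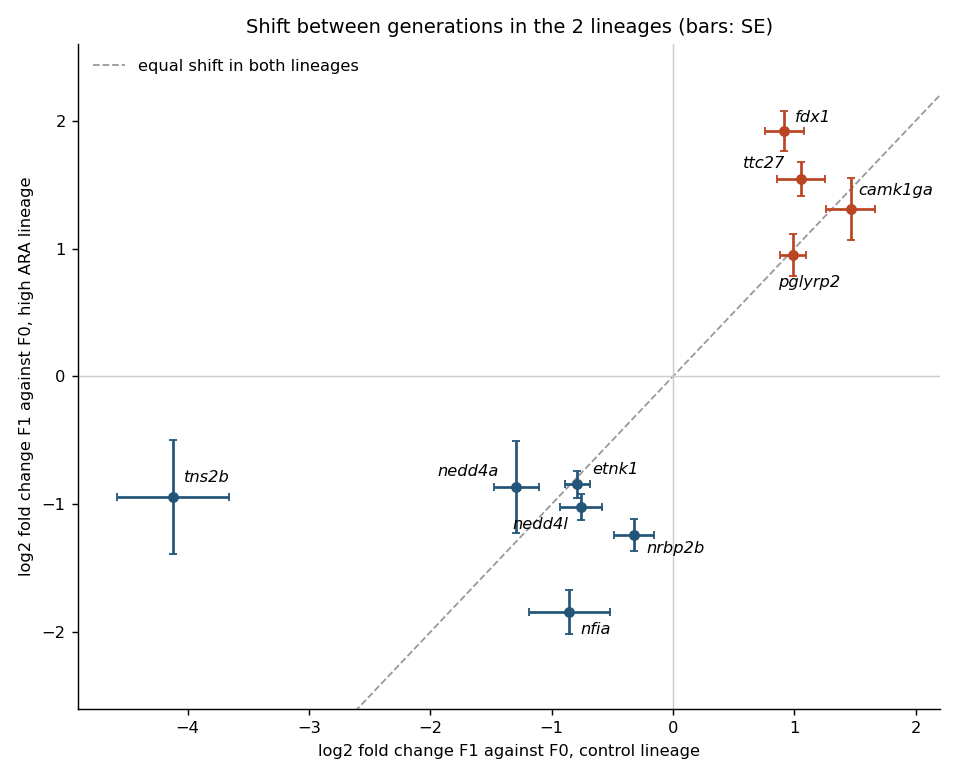
Log2 fold change of F1 against F0 in the control lineage (x axis) and in the high ARA lineage (y axis) for the 10 genes, with bars of 1 SE; the dashed line marks equal shifts. All points lie in the quadrants of equal sign, *pglyrp2*, *camk1ga*, *etnk1* and *nedd4l* close to the line, *fdx1*, *nfia* and *nrbp2b* on the side of a larger shift in the high ARA lineage, and *tns2b* far on the other side.

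Among the genes that were lower in F1, *nfia* and *nrbp2b* had their highest mean in F0 high ARA, the group whose fish themselves ate the ARA-rich diet. The mean of *tns2b*, described further on, was also highest there, but by a margin of 5.68 against 5.62 CPM in F0 control. *nfia* (ENSDARG00000062420, chromosome 22, 16813197 to 17026111, minus strand) was at 1.46 to 5.38 CPM in F0 control (median 3.92) and at 6.36 to 8.69 CPM in F0 high ARA (median 7.47). In F1 it was at 1.03 to 2.82 CPM in the control group (median 2.37) and at 1.52 to 2.82 CPM in the high ARA group (median 2.06). The F0 high ARA libraries lay above every other library, while the F1 groups had the same highest value and overlapped with F0 control. The log2 fold change was -0.85 (SE 0.333) in the control and -1.84 (SE 0.171) in the high ARA lineage, the latter a level 3.59-fold lower in F1. The RefSeq counts, over exons of 5570 in place of 3707 bases, gave -0.72 and -1.40. *slc48a1a* (r 0.92) and *chdh* (r 0.90) were most like *nfia* over the 24 libraries, and *tecpr2* within groups (r 0.80).

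*nrbp2b* (ENSDARG00000009626, chromosome 24, 33311911 to 33361719, minus strand) was at 8.05 to 15.2 CPM in F0 control (median 10.6) and at 14.6 to 17.4 CPM in F0 high ARA (median 16.2). In F1 it was at 6.42 to 10.7 CPM in the control group (median 9.04) and at 5.56 to 9.20 CPM in the high ARA group (median 6.44). The control groups overlapped widely and the high ARA groups did not overlap. On the log2 scale the shift was -0.32 (SE 0.165) in the control lineage, the smallest of the 10 genes, and -1.24 (SE 0.126) in the high ARA lineage, a difference of -0.93 (SE 0.205). *clmna* and *add3a* were most like it (r 0.89 and 0.88), and *bckdk* within groups (r 0.82).

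The pair of NEDD4 family ligases was lower in F1 in both lineages. *nedd4l* (ENSDARG00000060006, chromosome 21, 10797630 to 10962264, minus strand), whose mammalian counterpart removes the epithelial sodium channel from the membrane, was at 23.5 to 31.6 CPM in F0 control (median 25.6) and at 20.5 to 26.2 CPM in F0 high ARA (median 23.4). It was at 9.41 to 21.4 CPM in F1 control (median 16.1) and at 9.84 to 13.2 CPM in F1 high ARA (median 11.6). All F1 libraries lay below all F0 libraries of their lineage, with a log2 fold change of -0.76 (SE 0.171) in the control and -1.02 (SE 0.103) in the high ARA lineage. Libraries of F1 control varied more than those of F1 high ARA, with a coefficient of variation of 28.9% against 11.5%. The closest genes were *myo18aa* and *rxraa* (r 0.91 each), and within groups *si:ch73-103b11.2* (r 0.73).

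*nedd4a* (ENSDARG00000099843, chromosome 18, 618400 to 721582, plus strand) stood apart from *nedd4l*, because its level was already lower in most F0 high ARA libraries. It was at 40.9 to 49.3 CPM in F0 control (median 43.2) and at 12.5 to 42.0 CPM in F0 high ARA (median 21.0). It was at 12.2 to 25.8 CPM in F1 control (median 16.2) and at 4.62 to 20.6 CPM in F1 high ARA (median 13.1). The control groups did not overlap, while the high ARA groups overlapped, and F0 high ARA replicate 17 with its 42.0 CPM had the level of F0 control. The log2 fold change was -1.29 (SE 0.183) in the control and -0.86 (SE 0.36) in the high ARA lineage, and the latter was -0.61 without that library.

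The measure of *nedd4a* depended on the gene model. The Ensembl exons hold 7630 bases and the RefSeq exons 2601, and the 5041 bases that RefSeq lacks all lie beyond its last base, from 716542 to 721582, at the 3′ end of the Ensembl gene. Taking the RefSeq count from the Ensembl count leaves the reads of that stretch, which made up 90.3% of the Ensembl count in F0 control, 87.0% in F0 high ARA, 93.0% in F1 control and 93.6% in F1 high ARA. In the RefSeq exons alone *nedd4a* was at 2.72 to 5.80 CPM in F0 control and 1.94 to 5.56 CPM in F0 high ARA, against 0.406 to 2.08 CPM in F1 control and 0.131 to 1.92 CPM in F1 high ARA. There neither lineage overlapped between generations, and the log2 fold changes of -1.77 (SE 0.288) and -1.90 (SE 0.449) were of like size, on 1 to 62 counts per library. Whether the stretch belongs to the same transcript cannot be read from counts per gene, and strand was not used in counting. In the Ensembl counts *eml3* (r 0.83) and *rassf3* (r 0.82) were most like *nedd4a*, and *ciao2b* within groups (r 0.74).

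**Figure D3:**
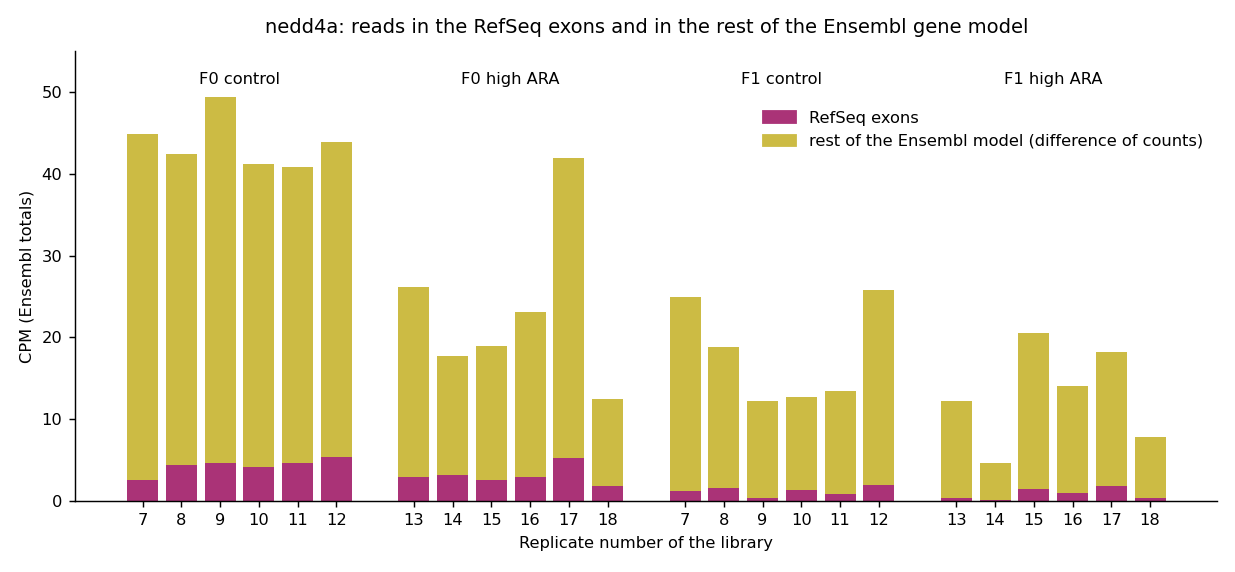
CPM of *nedd4a* in each library (y axis, scaled by Ensembl totals) by replicate number within the 4 groups (x axis), split into reads of the RefSeq exons and the remaining reads of the Ensembl gene model. The remaining reads form 87.0% to 93.6% of each group's count, and F0 high ARA replicate 17 reaches the height of the F0 control libraries.

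*tns2b* (ENSDARG00000068397, chromosome 6, 39016341 to 39053783, minus strand) was near absent in one group. It was at 2.87 to 8.51 CPM in F0 control (median 5.54) and at 3.68 to 11.2 CPM in F0 high ARA (median 4.83). The 6 libraries of F1 control held 11 counts in all, 0 to 4 each, or up to 0.791 CPM (median 0.168). In F1 high ARA there were 10 to 71 counts per library, or 0.896 to 5.71 CPM (median 2.59). F1 control thus lay below every library of the other groups, whereas F1 high ARA overlapped with F0 high ARA. Its log2 fold change was -4.12 (SE 0.462) in the control lineage and -0.94 (SE 0.447) in the high ARA lineage. The latter was -0.60 without F0 high ARA replicate 17, which was at 11.2 CPM. The shifts differed by 3.18 (SE 0.756), the largest difference between lineages among the 10 genes. With a mean of 0.323 ± 0.329 CPM (SD, n = 6) the F1 control level is set by single reads, and its fold change is correspondingly loose. The genes most like it, *bx539325.1* (r 0.83) and *dtx3lb.2* (r 0.80), followed it less closely than those named for any other of the 10 except *nedd4a*, and within groups it was *zfr2* (r 0.76).

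*etnk1* (ENSDARG00000019420, chromosome 4, 16896878 to 16917947, plus strand) had the smallest spread within groups of the 10 genes (pooled SD of log2 CPM 0.164, beside 0.771 for *tns2b*), with a coefficient of variation of 8.25% to 13.6% in its 4 groups. It was at 60.7 to 90.5 CPM in F0 control (median 78.8) and at 60.1 to 84.5 CPM in F0 high ARA (median 75.0). In F1 it was at 40.9 to 51.7 CPM in the control group (median 45.5) and at 37.8 to 45.3 CPM in the high ARA group (median 38.2). All 12 F1 libraries lay below all 12 F0 libraries. Its log2 fold change was -0.79 (SE 0.103) in the control and -0.85 (SE 0.104) in the high ARA lineage, and the difference of -0.06 (SE 0.142) was smaller than its error. The closest genes were *rbm10* (r 0.88) and *tefa* (r 0.87), and within groups *ube2ia* (r 0.82).

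Counting libraries in place of means, 6 of the 10 genes did not overlap between generations in the control lineage, 2 with all F1 libraries higher and 4 with all lower. Of all genes 2.34% did not overlap there, 0.989% higher and 1.35% lower. In the high ARA lineage there were 7, of which 3 higher and 4 lower, beside 7.09% of all genes, 3.93% higher and 3.16% lower. As with the calls, these shares describe the genes and support nothing. *pglyrp2*, *nedd4l* and *etnk1* parted in both lineages.

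Some of the genes shared the order of their 4 group means. *fdx1* and *ttc27* ran from F0 high ARA through F0 control and F1 control to F1 high ARA. *nedd4l*, *etnk1* and *nedd4a* ran from F1 high ARA through F1 control and F0 high ARA to F0 control. *nfia* and *tns2b* ran from F1 control through F1 high ARA and F0 control to F0 high ARA. *nrbp2b*, *pglyrp2* and *camk1ga* each had an order of their own. Some steps were smaller than their error, such as high ARA against control in F0 for *tns2b* (0.03, SE 0.308) and *ttc27* (-0.14, SE 0.164). In most genes neighbouring means of one generation overlapped in their libraries. The exceptions, where the groups of one generation did not overlap, were *nfia* in F0 and *fdx1* and *tns2b* in F1, each higher in high ARA, as were 0.32% of all genes in F0 and 1.04% in F1. On the log2 scale high ARA exceeded control in F0 by 1.00 (SE 0.248) for *nfia* on the Ensembl counts but by 0.70 (SE 0.167) on the RefSeq counts. For *nrbp2b* it exceeded control by 0.55 (SE 0.138) and 0.53 (SE 0.119). For *nedd4a* it differed by -0.89 (SE 0.222) on the Ensembl counts but by -0.45 (SE 0.242) on the RefSeq counts. In F1 it exceeded control by 0.86 (SE 0.164) for *fdx1* and by 3.21 (SE 0.668) for *tns2b*. These differences share their groups with the contrasts that chose the genes and were not tested. The same holds for the difference of the shifts between lineages, which edgeR called for 0.109% of 11974 genes and DESeq2 for 118 genes. Of the 10 genes edgeR called 0 (4 at an unadjusted p under 0.05, as 12.9% of all genes, and 3 called by DESeq2). Nothing can be read from these counts of the 10, since this difference is built from the contrasts that chose them.

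The difference between the diet lineages, averaged over both generations, came from a fit of all 24 libraries. It does not share the direction of the contrasts that chose the genes, but a choice by small p also favours genes with a small spread, and the spread comes from the same libraries, so that it too is given as a description and was not tested. *tns2b* had the largest average, 1.62 higher in high ARA on the log2 scale (SE 0.378). It came from F1, with 3.21 beside 0.03 in F0, and so from the low level in F1 control that also chose the gene. Leaving out one library each gave 1.45 to 1.83.

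For 5 other genes the average was positive. It was 0.37 for *fdx1* (SE 0.115), 0.50 for *nfia* (SE 0.186, but 0.36 with SE 0.15 on the RefSeq counts) and 0.38 for *camk1ga* (SE 0.162). It was near 0 for *ttc27* at 0.10 (SE 0.123) and for *nrbp2b* at 0.09 (SE 0.102). For *nrbp2b* a positive difference in F0 and a negative one of -0.38 (SE 0.155) in F1 stood behind the small average. The average was negative for *nedd4l* at -0.29 (SE 0.1) and for *etnk1* at -0.16 (SE 0.071). On the RefSeq counts these were -0.36 (SE 0.0872) and -0.15 (SE 0.0838). *nedd4a* had -0.69 (SE 0.208) on the Ensembl counts and -0.51 (SE 0.279) on the RefSeq counts. *pglyrp2* had -0.02 (SE 0.0999), less than its error, and its sign changed with library totals and without the low-count filter.

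**Figure D4:**
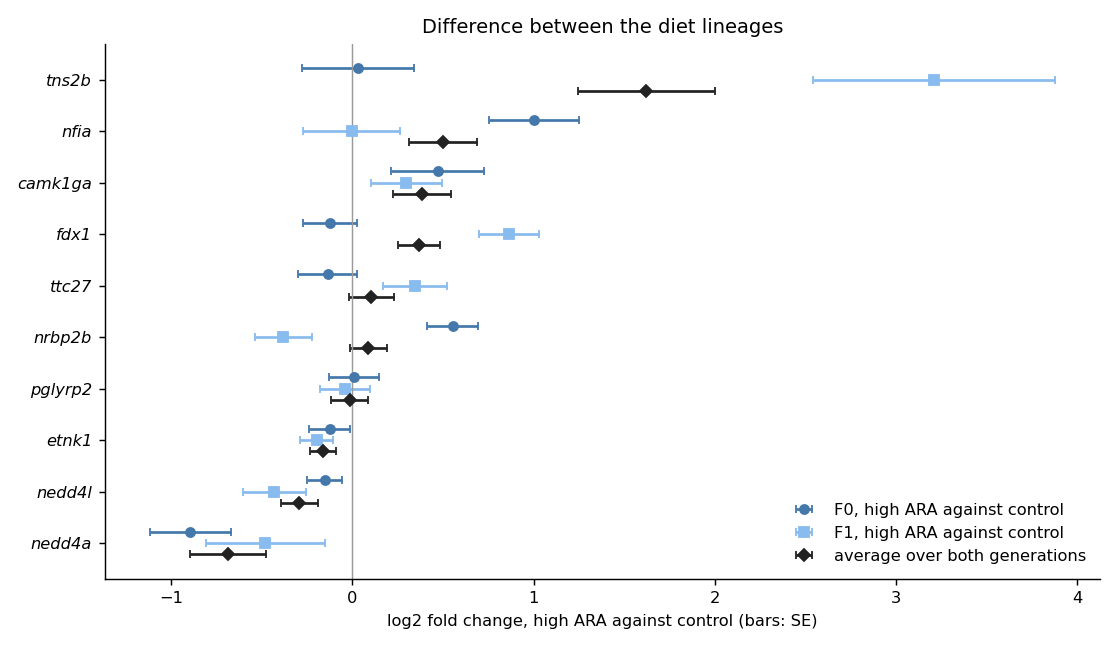
Log2 fold change of high ARA against control (x axis) for the 10 genes (y axis), in F0, in F1 and as the average of both generations, with bars of 1 SE; none was tested. *tns2b* has the largest average, which comes from F1, and *nfia* and *nrbp2b* are positive in F0 and at or below 0 in F1.

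Whether the 10 genes moved together beyond their group means was described by Pearson's r of log2 CPM. Over the 24 libraries, which carry the difference between generations, genes of equal direction had r between 0.31 and 0.87, and genes of opposite direction between -0.87 and -0.47. After group means were removed, the 45 pairs had r between -0.48 and 0.51. The highest were *pglyrp2* and *camk1ga* at 0.51 and 2 pairs at 0.42, *nedd4l* with *nedd4a* and *nedd4l* with *nfia*. The lowest were *ttc27* and *nedd4a* at -0.48 and *camk1ga* and *nedd4a* at -0.45. All pairs share libraries and their totals, and with the log10 total count the genes had r between -0.33 and 0.17 within groups. With the hepatocyte markers r ran from -0.43 for *fdx1* to 0.53 for *camk1ga*, and was 0.22 for *pglyrp2*. *camk1ga* and *pglyrp2* had r of -0.41 and -0.45 with leukocyte markers, and -0.44 and -0.26 with enterocyte markers (both lists below). The part of these cell types in the likeness of the pair was not tested.

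**Figure D5:**
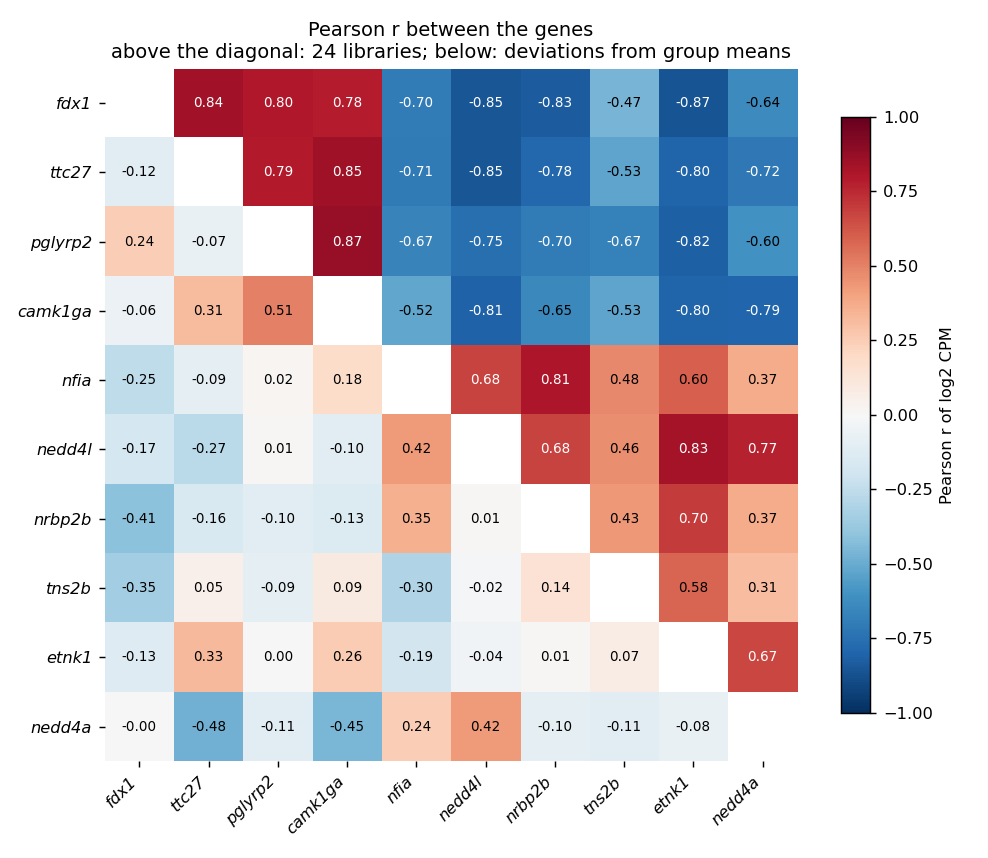
Pearson r of log2 CPM between the 10 genes (both axes), over 24 libraries above the diagonal and for deviations from group means below it. The blocks above the diagonal follow the direction of the F1 against F0 difference, while below it no pair passes 0.51 in size.

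Some other transcripts moved with the same contrast. The gene lists used from here on were chosen with earlier results of these data known. Of 14 clock genes tested, 6 were lower in F1 in the control lineage and 8 in the high ARA lineage at an adjusted p under 0.05 from edgeR, where 1.59% and 8.53% of all genes were. *bmal1a*, of the positive arm of the clock and named here after its value was seen, was at 0.73 (SE 0.257) in the control and 0.26 (SE 0.33) in the high ARA lineage, and was not called (edgeR, adjusted p = 0.147 and 0.621). The summed level of the clock list was 479 to 712 CPM in F0 control and 262 to 438 CPM in F1 control, and 563 to 850 CPM against 288 to 498 CPM in the high ARA lineage. *tefa*, a transcription factor of the clock output and one of the genes most like *etnk1*, fell from a mean of 78.0 to 27.8 CPM in the control lineage and from 73.1 to 27.5 CPM in the high ARA lineage. It was named for its likeness to *etnk1* over the 24 libraries, which carry the shift that chose *etnk1*. Its fall is therefore a description, and no p is given, though *tefa* also belongs to the clock list counted above. Within groups the clock list had r between -0.33 and 0.42 with the 10 genes. Its part in their shift was not tested.

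Enterocyte transcripts, a sign of gut tissue in a library, summed to 40.7 to 1150 CPM in F0 and to 59.5 to 412 CPM in F1 control, but to 85.3 to 102 CPM in F1 high ARA. Of 8 enterocyte genes tested, 4 fell in the high ARA lineage by edgeR's test, where 8.53% of all genes did, and 0 in the control lineage (0 at an unadjusted p under 0.05, 0 by DESeq2), where 1.59% did. The list's median log2 fold change was negative in both, at -2.54 in the high ARA and -1.27 in the control lineage, and 0 of the 8 were called for a difference between the lineages (0 at an unadjusted p under 0.05, 0 by DESeq2). With the mean level of these 8 genes as a covariate, the F1 against F0 log2 fold changes of the 10 genes were between -4.09 and 1.43 in the control lineage and between -1.89 and 1.92 in the high ARA lineage, each with its sign kept. The largest change there was that of *tns2b* in the high ARA lineage, from -0.94 to -1.18. The list itself fell between generations in that lineage, so this fit cannot fully separate it from generation. The choice of the 10 genes also favours kept signs. The part of the enterocyte list in the shifts was not tested. Within groups *nfia* had r of -0.53 with the enterocyte list, -0.56 with a biliary and -0.52 with an endothelial and stellate list, the strongest of the 10 genes. With the enterocyte covariate *nfia* was at -0.96 and -1.89, and the part of these lists in its shift was not tested.

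Pancreas acinar transcripts, from exocrine tissue that lies close to the liver, summed to 585 to 2865 CPM in F0 control (median 2129) and to 868 to 7230 CPM in F1 control (median 4595). In the high ARA lineage their sums were 2046 to 4461 CPM in F0 (median 2308) and 1484 to 3629 CPM in F1 (median 2507). The median log2 fold change of the 10 genes of that list was 1.11 in the control and -0.15 in the high ARA lineage, and edgeR called 0 of 10 in either (5 and 0 at an unadjusted p under 0.05, 0 and 0 by DESeq2). Of 8 leukocyte genes, with a median of -0.49 in the control and -0.51 in the high ARA lineage, 1 fell in the high ARA lineage, where 8.53% of all genes did. It was the macrophage gene *mpeg1.1* at -0.83 (SE 0.269, edgeR adjusted p = 0.0488), a call not tried with libraries left out. In the control lineage 0 of the 8 were called (4 at an unadjusted p under 0.05, 1 by DESeq2), where edgeR called 2.34% of all genes. Within groups the described genes had r between -0.32 and 0.34 with the pancreas list and between -0.45 and 0.22 with the leukocyte list. The part of either list in their shifts was not tested.

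The relatives of the 10 genes by family or pathway were tested over all genes as well. Of 61 such genes 59 were found, and 37 had enough counts for a test in the control lineage and 39 in the high ARA lineage. By edgeR 0 of 37 were called in the control lineage (9 at an unadjusted p under 0.05, 2 called by DESeq2), where 2.34% of all genes were. In the high ARA lineage edgeR called 5 of 39 (16 at an unadjusted p under 0.05, 6 called by DESeq2). Of these 5, 3 were higher and 2 lower in F1, no larger shares than the 8.4% and 8.53% of all genes. The calls of edgeR thus set the relatives apart in neither lineage. For the unadjusted p and for DESeq2 no share of all genes is set beside the counts, and nothing is read from them. The 5 that edgeR called came from the iron-sulfur, CDP and nuclear factor I lists. No relative of the peptidoglycan recognition, tensin, calmodulin kinase or NRBP genes was among them. Only 1, 2, 2 and 2 genes of these lists were tested there (0, 1, 1 and 2 at an unadjusted p under 0.05). Of all genes 16.9% were called there, and nothing is read from so few genes. With the enterocyte covariate the calls of *hscb*, *nfixb* and *chkb* described next were lost (edgeR, adjusted p = 0.142, 0.128 and 0.106), at log2 fold changes of 0.53, -0.51 and 0.80 in place of 0.58, -0.63 and 0.81.

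Around ferredoxin 1, 2 of 13 genes of iron-sulfur cluster assembly were called higher in F1 in the high ARA lineage. Of all genes 8.4% were called higher there, and nothing is read from so few genes. The mitochondrial chaperone gene *hspa9* was higher by 0.63 on the log2 scale (SE 0.139, edgeR adjusted p = 0.00873), and its partner *hscb* 0.58 (SE 0.191, adjusted p = 0.0489), a call that was lost in 11 of 12 fits without one library (highest adjusted p 0.1 without F1 high ARA replicate 17). *fdx2*, another mitochondrial ferredoxin gene, was at a log2 fold change of -0.01 and -0.07 in the control and high ARA lineages (edgeR, adjusted p = 0.983 and 0.834). *fdx1b*, the nearest relative of *fdx1*, was at 1.21 CPM at most in any library and was not tested.

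Around ethanolamine kinase, 2 of 9 genes of the CDP-ethanolamine and CDP-choline pathways were called in the high ARA lineage, where 16.9% of all genes were. Their directions were opposite, and nothing is read from so few genes. The choline kinase gene *chka* fell by 0.89 on the log2 scale (SE 0.147, adjusted p = 0.00181 from edgeR), from a mean of 70.8 to 38.5 CPM, and its call held without any one library. *chkb*, whose mammalian product accepts choline and ethanolamine, rose by 0.81 (SE 0.244, adjusted p = 0.0384 from edgeR), a call that was lost in 8 of 12 fits without one library (highest adjusted p 0.0828 without F1 high ARA replicate 17). *pcyt2*, which encodes the enzyme after ethanolamine kinase, was at a log2 fold change of 0.13 and 0.05 in the control and high ARA lineages (edgeR, adjusted p = 0.45 and 0.758).

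*nfixb*, the other nuclear factor I gene with enough counts, fell by 0.63 in the high ARA lineage (SE 0.179, adjusted p = 0.0286 from edgeR) and lost its call in 5 of 12 fits without one library (highest adjusted p 0.0668 without F0 high ARA replicate 15). Of the 9 other NEDD4 family ligases and adaptors tested, none was called between generations in the high ARA lineage (0 of 9, 2 at an unadjusted p under 0.05, 1 called by DESeq2), where edgeR called 16.9% of all genes. In the average over generations, where edgeR called 118 of 11974 genes (0.985%) and 0.518% as higher in high ARA, 2 of 39 relatives were higher in high ARA. They were *itcha*, a ligase of the NEDD4 family, at 0.57 (SE 0.131) and *hspa9* at 0.41 (SE 0.0955), both with an adjusted p of 0.0379 from edgeR. These calls were lost in 11 and 14 of 24 fits without one library, with adjusted p up to 0.0721 without F1 high ARA replicate 17 and 0.0691 without F0 high ARA replicate 15.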

How the data were processed

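Liver RNA was sequenced by the authors as single-end reads, mapped untrimmed to GRCz10 with HISAT2 and counted with featureCounts 1.5.0-p3 on Ensembl release 85 and on RefSeq genes. The deposited counts are raw and were made without regard to strand, so genes that overlap on opposite strands are uncertain. Counts of near-identical genes are uncertain as well. Each table holds 12 count columns of other samples, not used here. Ensembl genes were named by a RefSeq gene that shares their exons, then by the supplementary and gene name tables (27810 of 32105). All 276 pairs of libraries differed by more than sampling noise ( smallest chi-square per degree of freedom 7.44).

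Counts were analysed with edgeR 4.0.16 in R 4.3.3 (robust quasi-likelihood F test, TMM, mean count of at least 10, Benjamini-Hochberg over all genes). Each F1 against F0 contrast was fitted on its 12 libraries, the diet average and the lineage difference on 24. The SE is the log2 fold change divided by the square root of F. The code was tested on simulated data. A test of the diet average for the 10 genes had been planned, but its p-values are not given, since the choice of the genes also acts on the spread. Replicates are tanks, and each p sets a group difference against the spread between tanks of a group. Each generation had a sampling round of its own, so the F1 against F0 p-values do not cover variation between rounds. Likeness between genes is Pearson's r of log2 CPM (prior count 2) over 11864 genes. For each of the 10 genes the 2 closest over 24 libraries and the closest within groups are named, and of each list of relatives up to 3 with the smallest p of the diet average or of the same family. *hscb*, *nfixb*, *chka*, *chkb* and *pcyt2* were named after their values were seen, for a call or a place in the pathway. The 10 genes, the lists and the tests were chosen with earlier results of these data known. Alternatives were RLE factors, library totals, no filter, a CPM of at least 1 in 6 libraries, RefSeq counts, DESeq2 1.42.0 (the authors' tool), an enterocyte covariate, a replicate block (limma 3.58.1 for the diet average), all 24 libraries in one fit, and each library left out.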

Additional observations from a re-analysis of the deposited data

Results flagged for a closer look

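Within the 40 groups of 6 libraries (10 genes by 4 groups), 3 held a library whose gap to its nearest neighbour passed Dixon's 95% critical share of the group's range. Chance gives about 1 in 20. All are the highest library of F0 high ARA. *ttc27* was at 6.55 CPM in replicate 18, with 5.36 CPM next. *camk1ga* was at 5.14 CPM in the same replicate, with 3.12 CPM next. *tns2b* was at 11.2 CPM in replicate 17, with 5.54 CPM next.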

How the results depend on the processing

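The F1 against F0 contrasts chose the 10 genes, which favours a kept sign in advance, so that nothing is read from it. Their F1 against F0 log2 fold changes kept their sign under every alternative run and every library left out. The difference of these shifts between lineages did not in 4 genes. For *nedd4a* it was 0.42 on the Ensembl but -0.13 on the RefSeq counts. Under the alternatives it also crossed 0 for *pglyrp2* (-0.07 to 0.0621) and *etnk1* (-0.0883 to 0.0413). With single libraries left out it crossed 0 for these 2 and for *camk1ga* (-0.297 to 0.0566). The averaged diet difference of *pglyrp2* changed sign with library totals (0.0488), without the low-count filter (0.00462) and with 7 of 24 libraries left out (-0.0422 to 0.0336). The diet count of 118 genes was 73 without the filter and 338 with DESeq2. The control lineage count of 275 was 614 with DESeq2, 461 with 24 libraries in one fit and 175 with a replicate block. The high ARA count of 2058 was 1089, and the count of 13 genes that differed between lineages 23, with the enterocyte covariate; DESeq2 gave 118 for the latter. Library totals made 108 genes higher and 33 lower in the diet average, against 62 and 56, and moved the median of all genes for the lineage difference to 0.116. That median was 0.0116 with TMM. With library totals 22.8% of control lineage calls were higher, against 32.4% with TMM.

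Leaving out one library gave 111 (without F1 control replicate 10) to 283 control lineage calls, 1404 (without F0 high ARA replicate 13) to 1883 high ARA calls, 37 (without F0 high ARA replicate 15) to 195 (without F0 control replicate 10) diet calls, and 2 (without F1 control replicate 8) to 19 lineage difference calls. The causes were not tested. Same-numbered libraries of F0 and F1 did not deviate together (r -0.363 to 0.269 in the control, -0.0741 to 0.0896 in the high ARA lineage, 2 of 12 closest to their own number), so the replicate block pairs nothing known; it gave 175 control, 1549 high ARA and 9 lineage difference calls, and as a random block 101 diet calls. For *tns2b* in F1 control, *nedd4a* in RefSeq and *camk1ga* in F0, low counts limit the precision. A promoter comparison was not run.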
